A study of Mus musculus with 15 samples.

Results

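The cholesterol synthesis genes Hmgcs1, Idi1, Fdft1, Sqle, Cyp51, Msmo1 and Insig1 were followed in the cortex of mice 1 month after repeated head impacts. They were chosen by name, and every row of the transcript table whose GENCODE gene name was one of the 7 was taken. Each gene had 1 listed transcript, so the set was 7 transcripts of the 10370 listed, and 7 genes of the 7740 that the annotated rows belong to. The table held RNA-seq of dissected cortex from male C57BL/6 mice, which the labels give as 12 weeks old, in 7 Sham and 8 HF-HI libraries. HF-HI mice received high-frequency head impacts, a model in which anesthetized animals are struck repeatedly on consecutive days. Sham mice had the same handling and anesthesia and no impact, so anesthesia was shared by both groups. The tissue was a homogenate of all cortical cells, and fewer cells of a type and less RNA per cell cannot be told apart in it. Nothing in the labels says whether libraries shared a cage or a day, and p-values set the group difference against the spread between these libraries.

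Cells build cholesterol from acetyl-CoA through mevalonate, farnesyl diphosphate, squalene and lanosterol. The brain makes its own cholesterol because lipoproteins of the blood do not cross the blood-brain barrier, and astrocytes and myelinating oligodendrocytes are its main producers in the adult. The genes of the pathway are switched on together by the transcription factor SREBP2, which is held in the endoplasmic reticulum by SCAP and INSIG proteins when sterol is plentiful and is cut by 2 Golgi proteases when sterol runs low. Hmgcs1 encodes the synthase that condenses acetyl-CoA units on the way to mevalonate. Idi1 isomerizes isopentenyl diphosphate, Fdft1 (squalene synthase) joins farnesyl diphosphate into squalene, and Sqle oxidizes squalene and is a rate-limiting step. Cyp51 and Msmo1 remove methyl groups from lanosterol and its products. Insig1 is no enzyme: it is an SREBP target that retains SCAP and so closes the feedback loop.

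SREBP2 acts at promoters together with NF-Y and Sp1, so the sequence 250 bases before to 50 bases after the start of transcription was read for the members. RefSeq promoters of build GRCm38.p6 were found for 5 of the 7 genes, all but Fdft1 and Sqle. The promoters of the 2 genes with the smallest p-values below, Hmgcs1 and Cyp51, and of the gene that covaried least with the others, Msmo1, are printed 5′ to 3′ on the gene's own strand. Capitals mark 4 of the motifs searched on both strands: the SREBP core TCACNCCAC, its looser form TCACNNCA, the NF-Y box CCAAT and the Sp1 box GGGCGG, so that ATTGG and CCGCCC are boxes on the opposite strand.
Hmgcs1: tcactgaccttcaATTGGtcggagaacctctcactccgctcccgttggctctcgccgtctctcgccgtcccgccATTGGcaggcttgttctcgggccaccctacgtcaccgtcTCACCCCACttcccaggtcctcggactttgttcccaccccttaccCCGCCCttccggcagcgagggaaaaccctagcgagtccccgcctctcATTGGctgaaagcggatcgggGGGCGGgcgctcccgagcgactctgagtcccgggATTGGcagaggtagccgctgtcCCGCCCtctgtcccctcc
Cyp51: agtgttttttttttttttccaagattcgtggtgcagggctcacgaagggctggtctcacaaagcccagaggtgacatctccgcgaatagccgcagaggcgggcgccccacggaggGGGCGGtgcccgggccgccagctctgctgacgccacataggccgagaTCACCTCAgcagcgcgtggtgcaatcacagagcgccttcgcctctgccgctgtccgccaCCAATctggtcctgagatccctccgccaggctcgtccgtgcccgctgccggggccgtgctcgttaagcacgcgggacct
Msmo1: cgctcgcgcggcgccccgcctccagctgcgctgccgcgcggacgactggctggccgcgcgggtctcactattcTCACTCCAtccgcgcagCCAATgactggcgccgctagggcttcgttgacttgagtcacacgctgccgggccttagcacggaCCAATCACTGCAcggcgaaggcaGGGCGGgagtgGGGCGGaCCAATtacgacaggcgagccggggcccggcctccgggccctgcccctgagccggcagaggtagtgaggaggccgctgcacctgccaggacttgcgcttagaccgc
The Hmgcs1 promoter lies at chr13:119690101-119690400 on the plus strand, the Cyp51 promoter at chr5:4104648-4104947 on the minus strand and the Msmo1 promoter at chr8:64733529-64733828 on the minus strand. Their start sites lay 95, 49 and 214 bases from the 5′ end of the listed transcript.

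All 5 promoters held a CCAAT box and a GGGCGG box, which 37.4% and 35.7% of the 32851 mouse promoters of the same length also held. The core TCACNCCAC was present in 1.24% of all promoters and among the 5 only in Hmgcs1, at position -137 as TCACCCCAC. The looser TCACNNCA, which counts every core match too, was present in 13.8% of all promoters and in Hmgcs1, Cyp51 and Msmo1. Cyp51 carried it at position -88 as TCACCTCA. The E-box CACGTG, a further SREBP sequence searched, was present in 7.15% of promoters and among the 5 only in Insig1. A match is a description of the letters in this window.

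Per kilobase of transcript, Hmgcs1 was the most abundant member and stood far above the rest. Its mean over the 15 libraries was 900.6 normalized counts per kb (the reads of a transcript divided by the size factor of its library, over transcript length). Insig1 followed at 315.5 and Msmo1 at 307.0, which could not be ordered: Insig1 was the higher in 7 of 15 libraries (exact paired sign-flip permutation test, two-sided, adjusted p = 0.478 over 6 neighbouring pairs). Fdft1 was at 173.7, Idi1 at 160.7, Cyp51 at 153.9 and Sqle at 145.4. Of these, Idi1 and Cyp51 could not be ordered either (11 of 15 libraries, adjusted p = 0.123 in the same exact test), and the other neighbours differed. By count alone, only 2.76% of listed transcripts had a higher mean than Hmgcs1. Depth was sufficient for each member, with between 228 and 4086 reads per library, and no member was at 0 in any library.

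Of the 7 transcripts, 6 had a higher mean after HF-HI than after Sham, by 5.75 to 10.8%, and the mean of Fdft1 dropped by 0.50%. No transcript passed the adjusted threshold of 0.1 in limma, a linear model fitted to the deposited log2 values of all 10370 transcripts; 0 of 7 members and 0% of all transcripts were called. The same test gave 916 transcripts an unadjusted p under 0.05, and voom, its form for reads, also called 0 after adjustment. At an unadjusted p under 0.05, 2 of the 7 members were called, Hmgcs1 and Cyp51, both higher after HF-HI. Among all transcripts 8.83% were called at that level, 4.94% as higher and 3.90% as lower. Beside each value below, p is that of an exact permutation test of the group means of the deposited values (two-sided, 6435 arrangements), and adjusted p is that of limma. The median difference of the 7 members was 0.12 as the log2 ratio of group means, beside -0.0019 over all transcripts.

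**Figure D1:**
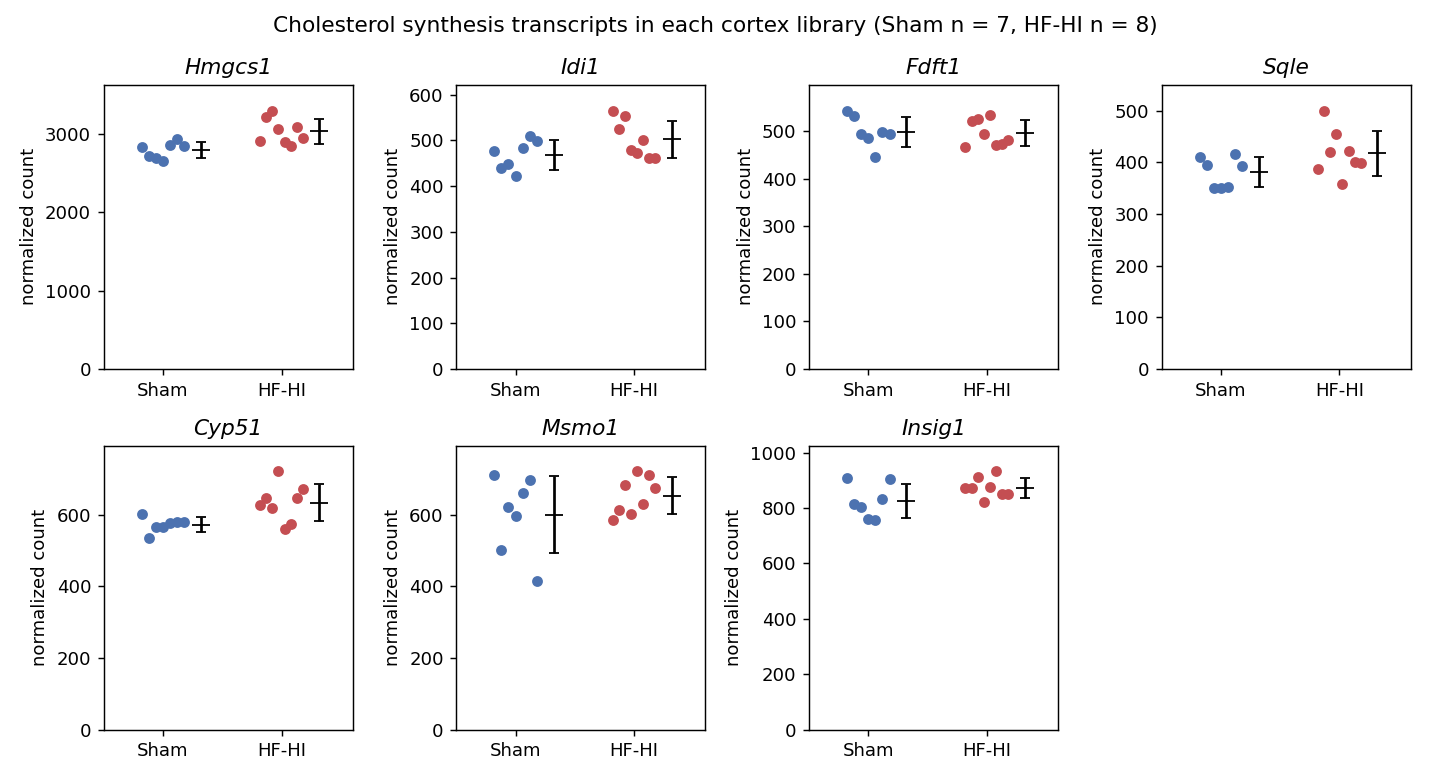
Normalized count (linear axis from 0) of each of the 7 transcripts in 7 Sham (blue) and 8 HF-HI (red) libraries, 1 point per library, with the mean and SD in black. The groups overlap in every panel; the 5 highest Hmgcs1 values and the 6 highest Cyp51 values belong to HF-HI.

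Hmgcs1 (ENSMUST00000179869, chr13:119690446-119708082, 10 exons, mm10) ranged in Sham from 2660 over a median of 2840 to 2937 normalized counts, and in HF-HI from 2851 over a median of 3005 to 3299. Each of the 8 HF-HI values exceeded the Sham median and 5 exceeded the whole Sham range, while the 3 others overlapped with it. The mean rose from 2794 ± 102 (SD, n = 7) to 3035 ± 161 (SD, n = 8) normalized counts, or by 8.64%. On the log2(normalized count + 1) scale the difference was 0.12, with a 95% interval of 0.04 to 0.19. On the deposited scale it was 0.08 ± 0.02 (SE), with p = 0.00482 in the exact permutation test and adjusted p = 0.359 in limma. The call held in each of the 15 fits that left out 1 library.

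Cyp51 (ENSMUST00000001507, chr5:4081145-4104746, 10 exons) ranged in Sham from 535 over a median of 576 to 604 normalized counts, and in HF-HI from 561 over 637 to 721. In HF-HI, 6 libraries exceeded the whole Sham range and the other two, HF-HI replicates 5 and 6, lay at 561 and 575, below the Sham median. The Sham libraries differed by no more than counting error, with a coefficient of variation of 3.62% beside 3.81% from counting alone, whereas HF-HI libraries varied by 8.06% beside 4.42%. The mean rose from 572 ± 20.7 (SD, n = 7) to 634 ± 51.1 (SD, n = 8), or by 10.8%, with a difference of 0.14 (95% interval 0.04 to 0.25) on the log2(normalized count + 1) scale. On the deposited scale the difference was 0.06 ± 0.02 (SE), with p = 0.0106 in the exact permutation test and adjusted p = 0.422 in limma. The call held in each of the 15 fits that left out 1 library.

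The Cyp51 call was lost when library depth entered the model. HF-HI libraries were shallower, with a log2 size factor of -0.25 on average against 0.30 in Sham (exact permutation test, two-sided, p = 0.0280). The 4 shallowest libraries were HF-HI, and the highest Cyp51 value came from the shallowest library, HF-HI replicate 4. With log2 size factor as a covariate in limma, the Cyp51 difference on the deposited scale was 0.04 and was not called, and the Hmgcs1 difference was 0.08 and was called. Over the 15 libraries with group means subtracted, Pearson's r with log2 size factor was -0.37 for Cyp51 and -0.07 for Hmgcs1 (permutation p = 0.265 and 0.834).

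**Figure D2:**
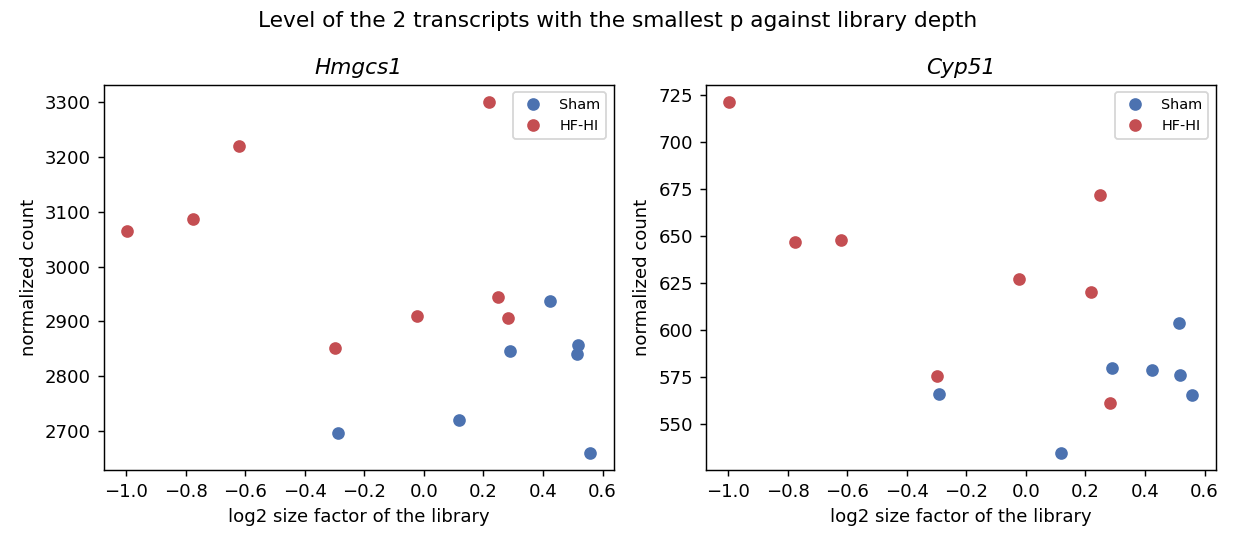
Normalized count of Hmgcs1 and Cyp51 against the log2 size factor of the library, a measure of depth, for 7 Sham (blue) and 8 HF-HI (red) libraries; the vertical axes do not start at 0. HF-HI libraries hold the 4 lowest size factors, and Cyp51 is highest, at 721, in the shallowest library.

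Sqle, Insig1, Idi1 and Msmo1 had positive differences of similar size and were not called. Sqle ranged in Sham from 351 over a median of 394 to 416 normalized counts and in HF-HI from 358 over 410 to 500. In HF-HI 4 libraries exceeded the whole Sham range, and the highest was HF-HI replicate 2. The difference was 0.13 (95% interval -0.02 to 0.27) on the log2(normalized count + 1) scale, with p = 0.0794 in the exact permutation test. With the size factor as a covariate the difference on the deposited scale was 0.02, against 0.04 without it. For the other genes of this paragraph the same covariate gave larger differences. Msmo1 was at 0.075 against 0.050, Idi1 at 0.046 against 0.035 and Insig1 at 0.045 against 0.036, and none was called. Sqle was called in limma without HF-HI replicate 5, with a difference of 0.05.

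Insig1, the feedback gene, ranged in Sham from 757 over a median of 814 to 907 and in HF-HI from 821 over 873 to 932 normalized counts. Again each of the 8 HF-HI values exceeded the Sham median, but only 2 exceeded the whole Sham range, and Sham replicates 1 and 7, at 907 and 905, were above 6 HF-HI libraries. The difference was 0.08 on the log2(normalized count + 1) scale (95% interval -0.01 to 0.18), with p = 0.0819 in the exact permutation test. It was called in limma without Sham replicate 1 and without Sham replicate 7, with a difference of 0.05 on the deposited scale in both, against 0.04 with every library. Idi1 ranged in Sham from 422 over a median of 476 to 509 and in HF-HI from 462 over 490 to 565, with the Sham median exceeded in 5 of 8 libraries. Its difference was 0.10 on the log2(normalized count + 1) scale (95% interval -0.02 to 0.22; exact permutation p = 0.0954).

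Msmo1 differed most between Sham libraries, from 415 over a median of 621 to 711 normalized counts, while HF-HI libraries ranged from 584 over 651 to 720. The 2 lowest values were Sham replicates 7 and 2 at 415 and 501, and only 1 HF-HI library exceeded the whole Sham range. The difference was 0.14 on the log2(normalized count + 1) scale, with a 95% interval from -0.08 to 0.35 (exact permutation p = 0.251). Without Sham replicate 7 the difference on the deposited scale was 0.02, against 0.05 with it. Fdft1 ranged from 445 over a median of 493 to 543 in Sham and from 467 over 487 to 534 in HF-HI, so the HF-HI range lay within that of Sham. Its difference was -0.01 on the log2(normalized count + 1) scale, with a 95% interval from -0.11 to 0.09 (exact permutation p = 0.878).

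The SD of the deposited values was 2.28 times as large in Sham as in HF-HI for Msmo1, and 1.79 times as large for Insig1. For Cyp51 it was 0.433 times as large. None of the 7 ratios passed an exact permutation test of the SD ratio (two-sided, 6435 arrangements, lowest p = 0.0601 for Msmo1 and lowest adjusted p = 0.288).

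Summed over the 7 transcripts, Sham libraries ranged from 5838 over a median of 6132 to 6490 normalized counts and HF-HI libraries from 6383 over 6556 to 7012. Hmgcs1, at 2660 to 3299 normalized counts, was the largest single part of each sum, so the sums are not independent of its values. They do not only repeat them. Sham replicate 1 had the highest Sham sum, at 6490, with Hmgcs1 at its Sham median of 2840. In HF-HI replicate 3 all 7 members lay above their own median over the 15 libraries, and in Sham replicates 3 and 4 none did. Sham replicates 1 and 6, with 5 members each above the median, overlapped with the HF-HI libraries. HF-HI replicate 2 stood apart from the other 14 libraries on the first principal component of all transcripts, at -12.6 against -0.72 to 3.35. Without it the difference on the deposited scale was 0.07 for Hmgcs1 and 0.05 for Cyp51, both still called, and for Sqle it was 0.03.

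Other values moved with the groups across the same libraries. Of 8 listed immediate early transcripts, which neurons induce on activity, 7 were called as higher after HF-HI, and their summed level spanned 1913 to 6049 normalized counts in Sham libraries and 5376 to 8063 in HF-HI libraries. Of 15 mitochondrial genome transcripts, 7 were called as lower, with sums of 388686 to 503065 in Sham and 267458 to 473162 in HF-HI. Oligodendrocyte transcripts, from cells rich in cholesterol synthesis, had 0 of 22 called at the unadjusted level, with a summed level of 31920 to 36784 in Sham and 30263 to 37495 in HF-HI and all 12 genes listed. Astrocyte transcripts had 1 of 18 called as higher and 2 as lower, and their sums overlapped, at 47143 to 49392 in Sham and 45928 to 51921 in HF-HI. Excitatory cortical neuron markers, 11 of 11 listed and led per kilobase by Nrgn and Slc17a7, had 3 of 13 transcripts called as higher. Striatal neuron markers were listed too (8 of 9 genes, with Drd2 not listed), had 3 of 15 transcripts called as lower, and summed to 7110 to 10830 in Sham and 5063 to 10294 in HF-HI. Of the other cell type lists, inhibitory neuron and oligodendrocyte precursor transcripts (7 each), endothelial and mural (6), choroid plexus (5) and blood (4) had 0 called, and microglia had 1 of 7 called as lower. Choroid plexus sums still varied widely between libraries of both groups. They ran from 1972 over a median of 2222 to 11212 in Sham and from 2018 over 2119 to 13832 in HF-HI. That list, with 2 of 7 genes listed, was not among those correlated below. The part of the differences in all these lists in the member values was not tested beyond the correlations that follow.

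The 7 members were correlated one by one with log2 size factor and with 11 marker or quality lists, 84 relations in all over 15 libraries with group means subtracted. None passed after Benjamini-Hochberg adjustment in either Pearson's or Spearman's form, and 2 had an unadjusted permutation p under 0.05 for Pearson's r. The lowest p for Pearson's r was that of Hmgcs1 with oligodendrocyte precursor markers (r = -0.70, Spearman's rho = -0.63, permutation p = 0.00636 and 0.0174, adjusted p = 0.534 and 0.536). It was -0.56 without the 2 libraries farthest from the median of the marker list. The lowest p for Spearman's rho was that of Cyp51 with blood markers (rho = 0.73, r = 0.53, permutation p = 0.00415 and 0.0468, adjusted p = 0.349 and 0.767), and r was 0.63 without the 2 libraries farthest from the median of that list. For Hmgcs1 with the immediate early list, r was -0.32 and rho -0.60 (permutation p = 0.199 and 0.0217, adjusted p = 0.767 and 0.536), and r was -0.72 without the 2 farthest libraries. Pearson's r with the immediate early list ran from -0.41 for Sqle to 0.08 for Msmo1, and with the mitochondrial list from -0.53 for Sqle to 0.12 for Msmo1.

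None of the 9 other listed enzymes of the pathway was called, and Lss among them was listed only as a retained-intron transcript. Of these, 8 had a positive difference, with a median log2 ratio of 0.06, beside 48.5% of all transcripts with a positive difference. The further enzymes Mvk, Mvd, Tm7sf2, Nsdhl, Ebp and Dhcr7, were not listed. Fdps, which makes farnesyl diphosphate, was at 299.9 ± 34.0 and 314.8 ± 24.9 (exact permutation p = 0.325).

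**Figure D3:**
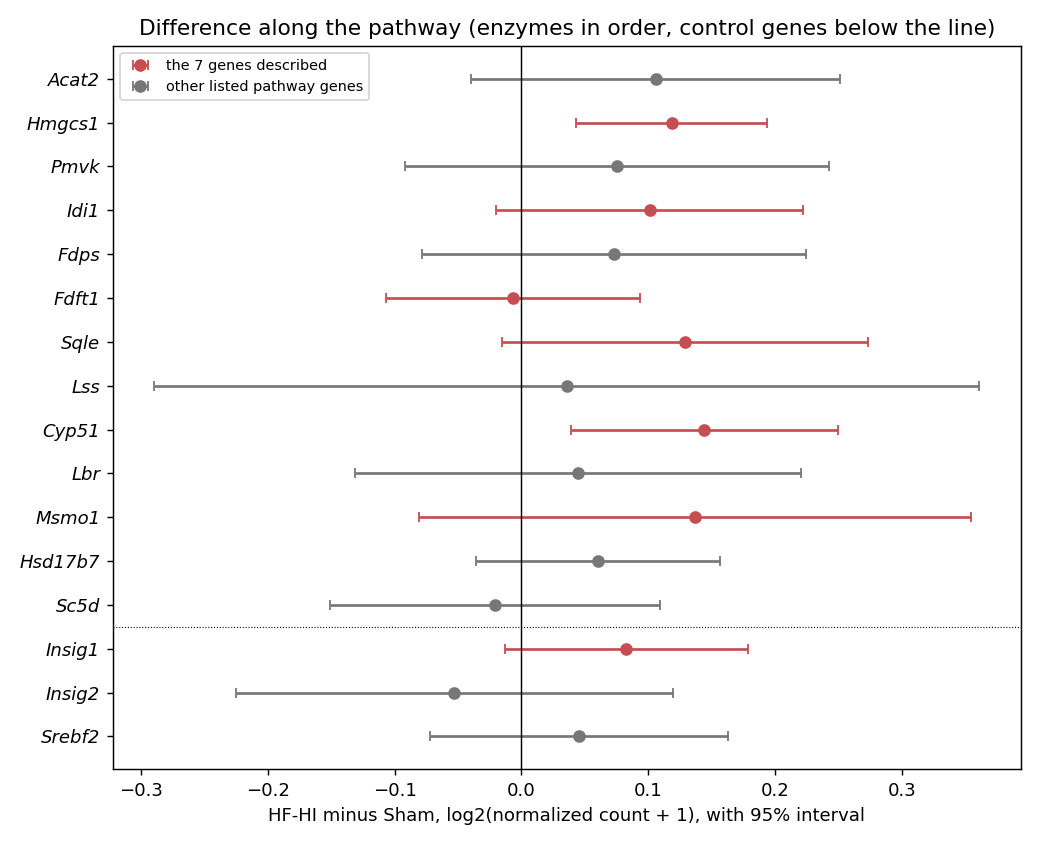
HF-HI minus Sham difference on the log2(normalized count + 1) scale (points) with its 95% interval (bars) for listed enzymes in pathway order and, below the dotted line, control genes; the 7 genes described are red. Intervals of Hmgcs1 and Cyp51 lie above 0, and those of the other genes drawn include 0. Lss is drawn from a retained-intron transcript.

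Of the genes that control SREBP processing, 1 of 8 listed transcripts was called, Mbtps2, the second Golgi protease. It rose from 225 ± 15.5 (SD, n = 7) to 255 ± 23.5 (SD, n = 8) normalized counts (exact permutation p = 0.0165, adjusted p = 0.476 in limma). Srebf2, the gene of SREBP2, was at 1087 ± 77.1 and 1122 ± 87.1, and Insig2, the partner of Insig1 that is not an SREBP2 target, was at 262 ± 25.0 and 253 ± 31.6 (exact permutation p = 0.425 and 0.540). Among genes of uptake and other SREBP targets 1 of 5 listed was called: Stard4, a sterol carrier, rose from 267 ± 16.1 to 296 ± 25.6 (exact permutation p = 0.0141).

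None of the 12 transcripts of export, storage and turnover was called. Cyp46a1, the neuronal hydroxylase through which the brain disposes of cholesterol, was at 1025 ± 63.6 and 1011 ± 87.1 (exact permutation p = 0.711). The 4 listed transcripts of Apoe, the main apolipoprotein of the brain, had exact permutation p-values from 0.320 to 0.797. In fatty acid synthesis 2 of 14 were called as higher: Elovl6, an elongase, rose from 445 ± 22.9 to 488 ± 18.8 (exact permutation p = 0.00155) and Fasn, the synthase, from 2664 ± 107 to 2840 ± 154 (p = 0.0218). In the branches of the isoprenoid pathway, 2 of 6 were called as higher: Rce1, a protease of prenylated proteins (exact permutation p = 0.0291), and the nonsense-mediated-decay transcript of Icmt (p = 0.0357). The protein-coding transcript of Icmt, which methylates prenylated proteins, was at 480 ± 77.4 in Sham and 433 ± 66.1 in HF-HI (exact permutation p = 0.222). In all, 6 of 54 transcripts outside the members, or 11.1%, were called, beside 8.83% of all transcripts, and all 6 as higher. With log2 size factor as a covariate 2 of the 54 were called, Elovl6 among them, and the calls of Mbtps2, Stard4, Fasn, Rce1 and Icmt were lost. The Mbtps2 and Elovl6 calls held in each of the 15 fits that left out 1 library, those of Fasn in 14, Icmt in 12 (lost without Sham replicate 3, HF-HI replicate 6 or HF-HI replicate 7) and Stard4 in 11 (lost on removal of replicate 2 or 4 in Sham, or of replicate 4 or 5 in HF-HI). Fasn lost its call without Sham replicate 5. Rce1 was called in only 5 of the 15 fits, those without Sham replicate 5 or HF-HI replicate 3, 5, 7 or 8, and was not called with voom.

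Covariation of the members was weak. Over the 21 pairs the median Pearson's r, with group means subtracted and 15 libraries, was 0.18, with 15 positive pairs and a range from -0.21 (Cyp51 with Insig1) to 0.59 (Hmgcs1 with Sqle). Over all pairs of listed transcripts the median was 0, and the central 90% lay between -0.48 and 0.49. Hmgcs1 and Sqle (Spearman's rho = 0.54, permutation p = 0.0348 and 0.0467, adjusted p = 0.509 and 0.386 over 21 pairs) gave r = 0.77 without the 2 libraries farthest from the Hmgcs1 median and r = 0.48 without HF-HI replicate 2. Hmgcs1 with Idi1 followed at 0.52 and Idi1 with Insig1 at 0.47. No pair passed after adjustment. The points share their library, its depth and its normalization.

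**Figure D4:**
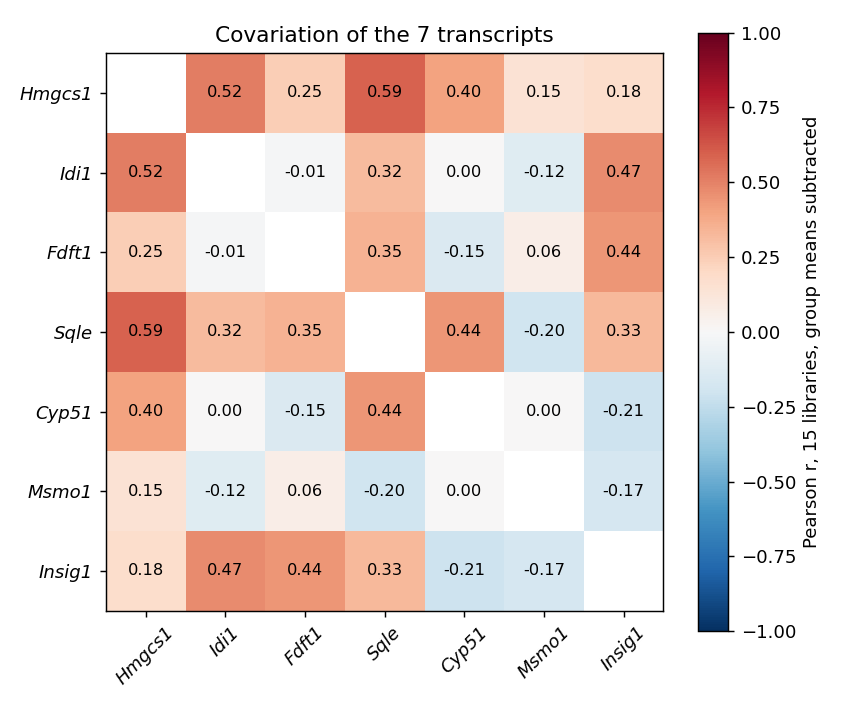
Pearson's r between each pair of the 7 transcripts over 15 libraries after the group means were subtracted; colour and printed value both give r. Hmgcs1, Sqle, Idi1 and Insig1 have positive values with each other, from 0.18 to 0.59, and Msmo1 lies between -0.20 and 0.15 with every other gene.

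Sqle and Hmgcs1 had the highest median r with the other 6 members, at 0.34 and 0.32. Cyp51 was at 0.0023 and Msmo1 at -0.06, and the r between these 2 genes of lanosterol demethylation was 0.0037. In Sham alone the median r over pairs was 0.46 (7 libraries) and in HF-HI alone 0.10 (8 libraries); the difference between the groups was not tested.

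The 10 transcripts outside the set most like the mean standardized value of the 7 members were Clcn4, Cfap97, Ccnt1, Rp9, Polr2b, Pdha1, Eml1, Nav3, Wsb1 and Sparc, with r from 0.80 to 0.73 over 15 libraries. None of them is a gene of the pathway lists. They were picked as the highest of all listed transcripts, so high r follows in part from that choice, and it was not tested. Without HF-HI replicate 2 their ranks ran from 2 for Rp9 to 26 for Sparc. With each member left out of the mean in turn, Hmgcs1 had r = 0.69 with the 6 others and ranked 23 of 10370, Sqle r = 0.59 at rank 126, and Msmo1 r = -0.07. Without HF-HI replicate 2 Hmgcs1 was at rank 58 and Sqle at rank 179. Among the 54 pathway transcripts Fnta was the most like (r = 0.53). The other 9 enzymes had a median r of 0.14 and 7 were positive, beside -0.0019 over all transcripts.

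Some counts are uncertain because of neighbours and copies. The listed Hmgcs1 transcript shares 460 identical bases with Gm48342, an antisense gene on the opposite strand, and Idi1 shares 323 with Gm48574, also on the opposite strand, neither of them listed. The listed Fdft1 transcript shares 771 identical bases with transcripts of Ctsb, which overlaps it on the opposite strand and is listed, and Cyp51 overlaps Akap9, also on the opposite strand. Whether counting used strand is not given in the sources used here. Idi1 has processed pseudogenes such as Gm13502, with 684 aligned bases at 100% identity, and Fdft1 has Gm6781 with 1249 bases at 97.4%, none of them listed. Annotated transcripts per member gene number 2 to 7, of which 1 is listed. Reads of a gene could also be divided between unlisted isoforms. Reads summed over each gene's listed transcripts were also tested across 7740 genes with voom. At an unadjusted p under 0.05 the same 2 members were called. These were Hmgcs1 (log2 difference 0.12 ± 0.03 SE, adjusted p = 0.289) and Cyp51 (0.13 ± 0.05 SE, adjusted p = 0.404). Each member has 1 listed transcript, so the sum held the same reads and is no separate evidence. It cannot recover reads of unlisted isoforms.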

How the data were processed

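Total RNA of cortex from 15 mice (7 Sham, 8 HF-HI) was sequenced by the authors as stranded, rRNA-depleted paired-end libraries, aligned with STAR to mm10, counted per transcript with eXpress and normalized with DESeq2 size factors. The deposited table holds variance-stabilized log2 values of 10370 transcripts; the annotation release is not given in the sources used here. On this scale low counts are compressed, so differences understate those of low transcripts. A count of 0 would be 9.81, and inverting the transform gave normalized counts and, since 100% of values were whole multiples of a step per library (tolerance 0.1 reads), reads. Libraries held 3496103 to 10582858 reads in listed transcripts. Of the transcripts, 10241 matched GENCODE M21 (GRCm38) and 129 did not.

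limma 3.58.1 (R 4.3.3) was fitted to the deposited log2 values of all transcripts with group as the term and a trended prior. Benjamini-Hochberg adjustment at 0.1 was the study's own threshold. The study applied it to DESeq2 tests on counts, a different model that was not refitted here, and reported altered genes at 1 month. Calls at an unadjusted p under 0.05 are described beside the share of all transcripts called. voom was run on reads recovered and summed per gene. Single transcripts also got an exact permutation test of the group means, added after the data were seen. Correlations used group-centred values and 100000 permutations within groups. Intervals cover the spread between libraries and counting intervals the counting error only. Fits and correlations were tested on simulated data. Promoters came from RefSeq, copies from blastn 2.17.0 (at least 90% identity over 200 bases). The members, gene lists and tests were chosen with earlier results of these data known. Named genes were all listed member transcripts, pathway transcripts at an unadjusted p under 0.05 and 8 fixed genes, some of which are not reported here, and the 10 transcripts most like the member mean. Alternatives were other normalizations, scales and filters, a depth covariate, a replicate block and each library left out. Libraries with equal numbers, 1 to 7 in both groups, were checked for correlated deviations, a check that cannot exclude a shared cage or day.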

Additional observations from a re-analysis of the deposited data

Results flagged for a closer look

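Of 48 groups of libraries examined among the members and the named pathway transcripts, 2 had a library far from the rest of its group, and chance alone gives about 1 in 20. Both belong to the Apoe transcript ENSMUST00000174355. Sham replicate 4 held 1019 normalized counts against 2433 to 3006 in the other 6 Sham libraries, a gap of 0.776 of the group's range, and HF-HI replicate 2 held 1672 against 2166 to 2633 in the other HF-HI libraries, a gap of 0.552 of the range. Reads of Apoe are divided between 4 listed transcripts, and no member of the 7 had such a library.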

How the results depend on the processing

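Hmgcs1 was called at an unadjusted p under 0.05 in each of the fits run, and the Cyp51 transcript in all but the one with log2 size factor as a covariate. That covariate left 1 member transcript, 1 member gene and 2 pathway transcripts called and 533 transcripts in all at an unadjusted p under 0.05. With a mean of at least 300 normalized counts, 2 pathway transcripts and 525 transcripts in all were called, since fewer were tested. Leaving out 1 library gave 2 to 3 member transcripts, 2 to 3 member genes, 4 to 8 pathway transcripts and 748 to 987 transcripts at an unadjusted p under 0.05, and 0 to 1 past the adjusted threshold: Rtn3 without Sham replicate 5, Nrxn3 without HF-HI replicate 2 and A330023F24Rik without HF-HI replicate 5, named after their values were seen. The median r over member pairs was 0.11 to 0.28 without 1 library and moved to 0.46 in Sham alone. Summing reads per gene leaves it as it was, since each member has 1 transcript. The Fdft1 difference turned positive with voom on recovered reads (0.00091), with the depth covariate (0.0018) and, without 1 library, lay between -0.012 and 0.0050. The cause of these changes was not tested.

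Deviations of libraries with equal replicate numbers were weakly correlated, between -0.14 and 0.09. Of 7 Sham libraries, 1 correlated best with its own number. Such values cannot exclude a shared cage or day. With the replicate block, 2 member transcripts, 1 member gene (Cyp51 was lost) and 7 pathway transcripts were called; Mbtps2 and Stard4 were lost, and 1 transcript each of Apoe, Acaca and Scd1 was added.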
